A study of Homo sapiens with 5 samples.

Results

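Transfer RNA genes are short templates read by RNA polymerase III, and the deposited lists of nascent start sites held 372 calls at the nuclear ones, out of 28159 calls on chromosomes 1 to 22 and X (1.32%, Wilson 95% interval 1.19 to 1.46) and 28283 calls in all. A call was included when its position lay within 500 bp of either end of a RefSeq gene of the tRNA biotype on these chromosomes of GRCh38. The forward strand held 182 of them and the reverse strand 190. The reference table lists 443 such genes, from 70 to 108 bp long with a median of 73 bp. For 14 of them the row stands outside the position-ordered run of its chromosome, as do 679 rows over all genes of the table, and none of these 14 had a call. Counts by isotype, chromosome, cluster and neighbourhood therefore use the 429 genes in order.

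The libraries were made by PRO-seq, in which engaged polymerases in nuclei add labelled nucleotides to nascent RNA that is then captured and sequenced. HUDEP-2, the cells used, are an immortalised human erythroid progenitor line. Of the 5 libraries, 2 came from unedited wild-type cells. The other 3 came from single-cell clones cut with the guide RNA sg1617, in which 1 bp was inserted, 13 bp were deleted or 15 bp were deleted, so each edited genotype rests on 1 clone and 1 library. The start sites were deposited as 1 list per strand with no column for a library, so edited and unedited cells could not be compared, there is no replicate of any call, and the alignment named in the lists is not the title of a sample.

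Each call is 1 base wide and its deposited score is 0 in every row, so a call is present or absent and its read depth is unknown. All intervals given here cover counting over genes or calls, which are not replicates. All 6 erythroid marker genes listed (GATA1, KLF1, ALAS2, SLC4A1, HBB and HBA1) had a call within 500 bp of an end, against 1 of 9 markers of lymphoid, myeloid and megakaryocytic cells, the myeloid factor gene CEBPA.

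Polymerase III finds tRNA genes through promoter elements inside the gene itself, the A box and the B box. The factor TFIIIC binds these boxes and places TFIIIB just upstream of the gene, and TFIIIB recruits the polymerase. Transcription starts a few bases before the first base of the mature tRNA and ends in a run of T just after the gene; the short 5′ leader is then cut off by RNase P and the 3′ trailer by RNase Z. Human tRNA genes are present in many copies, lie partly in clusters, and carry names that give the amino acid, the anticodon, a number for the isodecoder (genes with the same mature sequence share it) and a copy number. In these names X stands for the initiator methionine tRNA and U for the selenocysteine tRNA.

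Most of the calls lay just before the gene. Below, a start-flank call is one 0 to 20 bp outside a gene end on the strand that reads into the gene, with 0 the outermost base of the gene; this definition was set after the positions had been seen. The 6 genes below show what such a stretch looks like. They were printed because they lie whole inside RefSeq promoter windows (GRCh38.p14) of neighbouring genes and cover different isotypes, both strands and the shortest and longest leaders among the genes that could be read. Each runs 5′ to 3′ in the direction of transcription from the called base, with the annotated tRNA gene in capitals and 15 bases after it.
TRN-GTT4-1: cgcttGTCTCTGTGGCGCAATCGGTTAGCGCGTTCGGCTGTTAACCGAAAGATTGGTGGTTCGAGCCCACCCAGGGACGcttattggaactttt
TRR-ACG2-1: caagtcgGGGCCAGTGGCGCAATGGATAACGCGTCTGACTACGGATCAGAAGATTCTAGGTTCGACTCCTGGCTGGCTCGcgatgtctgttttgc
TRA-AGC2-2: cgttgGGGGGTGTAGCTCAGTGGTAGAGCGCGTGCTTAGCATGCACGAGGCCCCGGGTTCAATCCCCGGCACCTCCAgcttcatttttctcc
TRL-AAG2-2: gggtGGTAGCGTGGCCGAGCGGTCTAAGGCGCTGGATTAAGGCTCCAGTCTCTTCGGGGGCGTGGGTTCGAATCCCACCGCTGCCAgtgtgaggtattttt
TRG-CCC2-2: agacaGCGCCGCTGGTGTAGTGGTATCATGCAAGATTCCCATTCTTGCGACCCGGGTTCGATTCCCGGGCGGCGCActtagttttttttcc
TRH-GTG1-9: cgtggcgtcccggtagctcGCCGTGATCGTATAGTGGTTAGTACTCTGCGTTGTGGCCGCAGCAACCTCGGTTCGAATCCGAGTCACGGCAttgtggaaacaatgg

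The asparagine gene TRN-GTT4-1 is at chr1:16889677-16889750 with a forward call 5 bp before it. The arginine gene TRR-ACG2-1 (chr3:45688999-45689071) has a reverse call at 7 bp, and the alanine gene TRA-AGC2-2 (chr6:28863685-28863756) a reverse call at 5 bp. The leucine gene TRL-AAG2-2 is at chr6:28943622-28943703 with a reverse call at 4 bp, and the glycine gene TRG-CCC2-2 at chr16:636736-636806 with a reverse call at 5 bp. The histidine gene TRH-GTG1-9 (chr15:45201151-45201222) has a forward call at 19 bp, the longest leader in the set. A run of 4 or more T lies within the 15 bases after the gene in 7 of the 10 start-flank genes that could be read in this way, and in all those printed here except TRH-GTG1-9.

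The letters of the gene also give its strand, which the reference table does not. The motif GTTCNANNC, the core of the B box, was searched on both strands. It occurs in 2626 of 35116 promoter windows of 300 bases (7.48%) and in all 14 tRNA genes held whole by such a window. Of 14 genes with the motif on 1 strand and a start-flank call, the call was on the strand of the motif in 14. None of the windows is named for a tRNA gene, so these are genes that happen to lie in a neighbour's window.

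Distances are counted from the deposited positions. Over 8036 calls inside promoter windows of their own strand, the dinucleotide CA, common at human start sites, ended 1 base further along than the called base in 33.8% and at the called base itself in 1.51%. Starts 1 base beyond the deposited positions would make each start-flank distance of 1 bp or more 1 bp shorter, and would change other distances according to strand.

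At least 1 call lay within 500 bp of 270 of the 443 tRNA genes, which is 60.9% (56.3 to 65.4) against 21.3% of all 59098 genes, 46.4% of protein-coding genes and 12.4% of lncRNA genes. Start-flank calls were found at 252 tRNA genes, 56.9% (52.2 to 61.4) against 6.28% of all genes, 14.6% of protein-coding, 1.89% of lncRNA, 19.5% of snRNA and 6.52% of snoRNA genes. Over the 429 genes in order these shares were 62.9% and 58.7%. The start-flank definition leaves out calls inside a gene end. Such calls were 3472 of 6789 into-gene calls within 50 bp of an end at protein-coding genes, and 1 of 253 at tRNA genes. Of the 270 genes with any call, 252 (93.3%) had a start-flank call, and no gene had more than 1. The lists hold no calls on the same strand closer than 206 bp. A second into-gene call within 50 bp of an end that has a start-flank call therefore does not occur in them for any class. The start-flank calls made up 252 of the 372 calls (67.7%, 62.8 to 72.3), 128 of them forward and 124 reverse.

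Position was narrow. The median start-flank distance was 6 bp, with quartiles of 5 and 7 bp and a range of 0 to 19 bp. The most frequent distance was 5 bp with 58 genes, then 6 bp with 52, 7 bp with 46, 4 bp with 34, 8 bp with 25, 3 bp with 14 and 9 bp with 9. Thus 243 of 252 genes (96.4%) lay at 2 to 9 bp. Closer calls were seen at 3 genes: TRA-AGC11-1 at 0 bp, and TRE-TTC4-1 and TRA-TGC5-1 at 1 bp. Another 6 genes had their call 10 to 20 bp out. Among all calls within 50 bp of an end and reading into the gene, 243 of 253 (96.0%) were 2 to 9 bp outside a tRNA gene, against 307 of 6789 (4.52%) at protein-coding genes, where a call is counted once for each gene it fits (6713 different calls). Of those 6789, 1470 were 1 bp outside the annotated end, 872 at the end base and 3472 inside it. The range of 2 to 9 bp follows where the tRNA calls lie and leaves out these protein-coding positions.

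**Figure D1:**
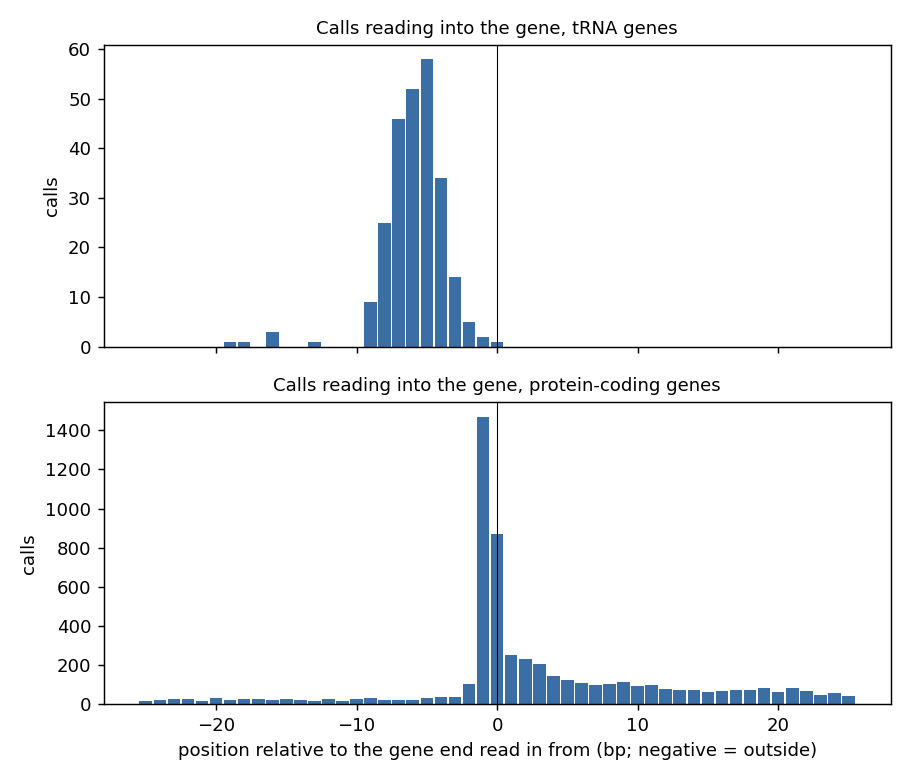
Number of calls (vertical axis) at each position in bp relative to the gene end they read in from (horizontal axis, negative outside the gene), for tRNA genes above and protein-coding genes below. The tRNA calls form 1 hump centred 6 bp outside the gene with almost none inside, while the protein-coding calls peak at 1 bp outside and the end base and trail into the gene.

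The opposite orientation was rare at this range. Only 9 calls within 50 bp of a tRNA gene end read out of the gene, and none of them lay 2 to 9 bp outside. Other small RNA classes had fewer of their into-gene calls at 2 to 9 bp: 6 of 33 for snRNA genes, 10 of 139 for snoRNA genes, and 5 of 13 for a list of other polymerase III genes. In that list, the calls at RN7SK (which sequesters the elongation factor P-TEFb) and RPPH1 (the RNA of RNase P) lay 5 and 6 bp out. Those at the Y RNA genes RNY1, RNY3, RNY4 and RNY5 lay 0, 2, 0 and 1 bp out. The vault RNA genes VTRNA1-1, VTRNA1-3 and VTRNA2-1 had calls at 2, 1 and 1 bp. At 16 of the 20 genes in the list there was a call, and 11 (55%) had a start-flank call.

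The other 120 of the 372 calls lay farther away, at a median of 248 bp from the nearest tRNA gene end (quartiles 118 and 349.5 bp). At the edge of the window, the outermost call inside it was 491 bp from TRQ-TTG1-1, and the nearest ones outside it were 508 bp from TRA-AGC5-1 and 510 bp from TRR-CCT4-1 and TRT-CGT3-1. The last 50 bp inside the window held 11 calls and the next 50 bp outside it 6.

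By isotype, the initiator methionine genes stood out for completeness. All 8 copies (TRX-CAT1-1 to TRX-CAT1-8), which read the start codon, had a start-flank call, at distances from 4 to 7 bp. TRX-CAT1-1 is at chr1:153671250-153671321 with its forward call at 4 bp; 6 copies lie on chromosome 6, and TRX-CAT1-8 is at chr17:82494721-82494792 with a reverse call at 6 bp. Of the 11 elongator methionine genes, which decode internal methionine codons with the same anticodon, 5 had one. The Wilson interval was 67.6 to 100% for the initiator and 21.3 to 72.0% for the elongator genes, so the intervals overlap.

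Threonine genes came next, with 18 of 20 (90%), followed by proline with 16 of 20 (80%), glutamate with 11 of 15 (73.3%) and lysine with 19 of 27 (70.4%). Arginine and tyrosine each had 69.2% (18 of 26 and 9 of 13), and serine had 17 of 26 (65.4%). Phenylalanine (7 of 11), aspartate (8 of 13), valine (18 of 30), alanine (22 of 37), leucine (19 of 32), isoleucine (13 of 23) and glutamine (10 of 19) lay between 52.6 and 63.6%. Tryptophan had 3 of 7 genes, asparagine 8 of 21 (38.1%), glycine 11 of 30 (36.7%), histidine 3 of 9 and cysteine 9 of 29 (31.0%). With 8 to 37 genes for most isotypes, neighbours in this order have overlapping intervals, whereas the interval for threonine (69.9 to 97.2%) does not overlap that for cysteine (17.3 to 49.2%), asparagine (20.8 to 59.1%) or glycine (21.9 to 54.5%).

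**Figure D2:**
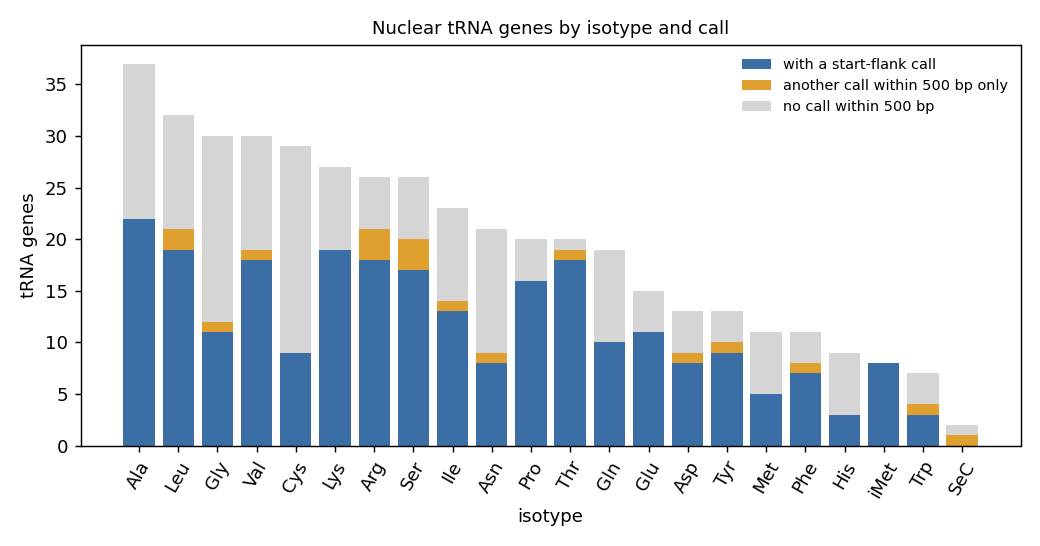
Number of nuclear tRNA genes (vertical axis) of each isotype (horizontal axis), split into genes with a start-flank call, genes with only another call within 500 bp, and genes with no call. All 8 initiator methionine genes carry a start-flank call, while most cysteine, glycine and asparagine genes carry none.

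Nearly every anticodon was covered. Of 49 anticodons in the table, 46 had at least 1 gene with a start-flank call and 47 at least 1 gene with any call. All genes had one for threonine AGT (9 genes) and TGT (6 genes), glutamate TTC (7 genes), alanine CGC (4 genes) and leucine TAG (3 genes). No start-flank call was found at the 3 isoleucine GAT genes on the X chromosome, at the lone tyrosine ATA gene TRY-ATA1-1 (chr2:218245826-218245918), or at the selenocysteine TCA genes. Of these, only TRU-TCA1-1 (chr19:45478601-45478687) had any call, on the reverse strand inside the gene and 36 bp from its right end. The selenocysteine tRNA inserts selenocysteine at recoded stop codons, and its gene differs from other tRNA genes in using promoter elements upstream of the gene.

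Leader length varied by isotype as well. Tryptophan had the lowest median, 3 bp, with calls at 2, 3 and 3 bp in the 3 genes TRW-CCA2-1, TRW-CCA1-1 and TRW-CCA4-1. Medians were 5 bp for leucine, lysine and proline, 6 bp for alanine and the initiator, 7 bp for serine and tyrosine, and 7.5 bp for aspartate. Histidine stood apart: TRH-GTG1-7 (chr15:45198606-45198677), TRH-GTG1-8 (chr15:45200413-45200484) and TRH-GTG1-9 had their calls 18, 16 and 19 bp out. These are the only histidine genes with a call, they form 1 cluster on chromosome 15, and mature histidine tRNA carries an extra guanosine added before the first templated base. The remaining calls beyond 10 bp were at TRQ-CTG1-2 and TRQ-TTG3-3, both glutamine genes at 16 bp, and at the proline gene TRP-AGG2-8 at 13 bp.

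Coverage was uneven over the chromosomes. Start-flank calls were found at 29 of 33 tRNA genes on chromosome 17 (87.9%, 72.7 to 95.2), 16 of 19 on chromosome 14 (84.2%), 9 of 9 on chromosome 15, 8 of 9 on chromosome 12 and 99 of 154 on chromosome 6 (64.3%, 56.5 to 71.4). By contrast, chromosome 1 had 26 of 85 (30.6%, 21.8 to 41.0) and chromosome 7 had 3 of 22 (13.6%, 4.75 to 33.3). Over the chromosomes other than 1, 6 and 7 the count was 124 of 168 (73.8%). Chromosomes 4, 9, 18, 21 and 22 hold 1 or 2 tRNA genes each and had none.

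The low chromosomes were low in particular places. At chr1:161399700-161612029 there are 32 tRNA genes, 5 of them with a start-flank call, and at chr1:120844262-149740321 another 32, of which 9 had one. At chr7:149310190-149707740, 1 of 19 genes had one. The high counts came from chr17:8119155-8227064 with 16 of 18, chr14:20609336-20684087 with 12 of 14, and chr6:26286526-28989083, where 96 of 144 genes had one. An uncalled gene is not shown to be silent, since the reads behind the lists are unknown. How reads were placed among repeated gene copies of the same sequence is not known from the lists. Its bearing on the counts by chromosome, isotype, cluster and copy number was not tested.

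Most cysteine, asparagine and glycine genes, the isotypes with few calls, lie on these 2 chromosomes. Cysteine had 1 of 18 on chromosome 7 and 8 of 10 on chromosomes other than 1, 6 and 7. Asparagine had 4 of 17 on chromosome 1 and 4 of 4 elsewhere. Aspartate had 0 of 5 on chromosome 1 and 8 of 8 elsewhere, and glutamate had 5 of 9 and then 6 of 6. Glycine genes had 4 of 18 on chromosome 1 and 7 of 12 elsewhere. Elongator methionine is an exception, with no gene on chromosomes 1 and 7 and 5 of 11 called. This split by chromosome was chosen after the values had been seen.

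Isodecoder numbers are assigned in the naming scheme roughly from the best-scoring sequence of an anticodon downwards. Genes numbered 1 had a start-flank call in 71 of 116 cases (61.2%, 52.1 to 69.6) and those numbered 2 in 81 of 104 (77.9%, 69.0 to 84.8). The count was 37 of 54 for number 3, 21 of 40 for number 4, and 41 of 107 for numbers of 5 or more (38.3%, 29.7 to 47.8), whose interval lies below those of the first 3. Isodecoder number and chromosome were not separated here. Copy number of the isodecoder showed no such spread: 112 of 200 single-copy genes (56.0%), 27 of 46 with 2 copies, 27 of 49 with 3 or 4 and 86 of 134 with 5 or more (64.2%) had a call, with overlapping intervals. The copy counts include 8 genes without an isodecoder number, which were grouped by anticodon as if they shared one. Pseudogenes that carry a tRNA name had a call within 500 bp in 2 of 87 cases (2.3%) and a start-flank call in 1 (1.15%, 0.203 to 6.23), TRF-GAA11-1 at chr6:28727078-28727150, with the call 2 bp out.

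**Figure D3:**
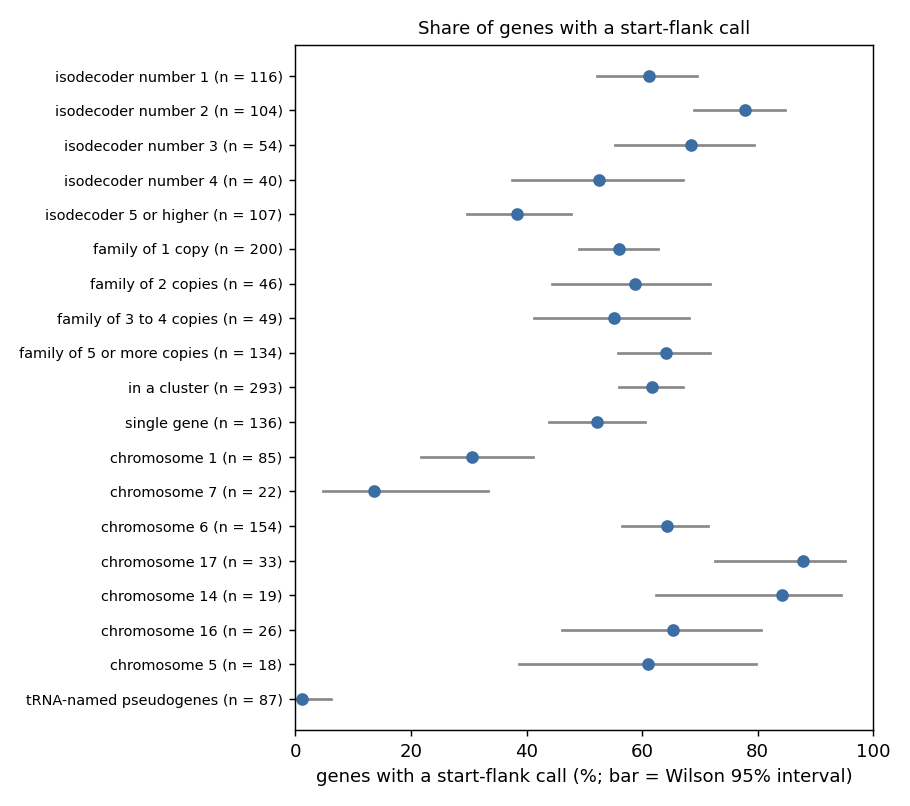
Percentage of genes with a start-flank call (horizontal axis, bars are Wilson 95% intervals over genes) for groups of tRNA genes by isodecoder number, copies of the isodecoder, clustering and chromosome, and for tRNA-named pseudogenes. Of the 7 chromosomes drawn, each with at least 18 tRNA genes, 1 and 7 lie lowest and 17 and 14 highest, isodecoder numbers of 5 or more lie below numbers 1 to 4, and the pseudogenes lie near 0.

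Clustered genes, chained at gaps of at most 10 kb, numbered 293 in 80 clusters. Of these, 181 (61.8%, 56.1 to 67.2) had a start-flank call, against 71 of 136 single genes (52.2%, 43.9 to 60.4), and the intervals overlap. A start-flank call was found at every gene in 35 clusters, which hold 101 genes, and at no gene in 15 clusters, which hold 61. The largest, at chr1:161440171-161480636, holds 24 genes in repeats of aspartate TRD-GTC2, glutamate TRE-CTC1, glycine TRG-GCC1 and TRG-TCC2 and leucine TRL-CAG1. None of the 24 had a start-flank call, and the cluster's 2 calls, a reverse one at 161440391 and a forward one at 161440454, lie 63 bp apart beside its first gene, TRG-TCC4-1.

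Coverage of the other large clusters varied. At chr6:26299677-26331515, 7 of 12 genes had a start-flank call, and at chr6:27532208-27562270, 3 of 6, where the share over all 429 genes in order was 58.7%. The 7 genes at chr17:8220869-8227064, of 7 isotypes, all had a start-flank call, as did the 5 at chr17:8119155-8125816. At chr6:28789770-28823389, 7 of 8 alanine and phenylalanine genes had one, all on the reverse strand. At chr16:3150674-3192060, 8 of 14 had one, with 7 forward and 1 reverse. The cluster with the most calls, at chr6:28710589-28747816, had 13 calls over 7 genes, of which 6 had a start-flank call.

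Neighbouring tRNA genes at most 1000 bp apart made 77 pairs. In 47 pairs both genes had a start-flank call, in 11 pairs 1 had, and in 19 neither. Most of these 19 lie in the largest cluster, the repeats on chromosome 1, so they are not separate loci. Among the 47, the calls pointed the same way in 27, away from each other in 9 and toward each other in 11. The 2 closest pairs, TRY-GTA5-2 with TRA-AGC8-2 and TRF-GAA1-6 with TRN-GTT2-6, are 113 and 129 bp apart and had 1 start-flank call each. The smallest gap between calls on 1 strand in the deposited lists is 206 bp.

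Most called genes had few calls around them. Exactly 1 call lay in the window of 162 genes, 2 in that of 69, 3 in that of 31 and 4 in that of 6. With 5 calls each, the isoleucine gene TRI-TAT2-1 (chr2:42810536-42810628) and the serine gene TRS-AGA2-5 (chr8:95269657-95269738) had the most. At TRI-TAT2-1, which is over 1000 bp from any gene that is not a tRNA gene, the start-flank call was at 42810532 on the forward strand. Further forward calls were at 42810236 and 42810888, and reverse calls at 42810116 and 42810428, so each of the first 2 forward calls has a reverse call 120 or 104 bp upstream. TRS-AGA2-5 lies inside another gene, and 3 of its 5 calls are also within 500 bp of an end of CFAP418.

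The 18 called genes without a start-flank call were mixed. In 2 of them, TRL-AAG1-3 and TRW-CCA3-3, the calls in the window were start-flank calls of another tRNA gene. In 5 of them a call lay inside the gene, among them the serine genes TRS-GCT1-1 and TRS-TGA4-1, 25 and 23 bp from an end, the isoleucine gene TRI-TAT1-1 at 12 bp, and the arginine gene TRR-TCT3-2 with a call on its end base. The rest had calls from 69 bp (TRR-CCG1-1) to 467 bp (TRL-CAA6-1) away.

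Opposite-strand partners were less frequent at the start-flank calls than over all calls outside the tRNA windows or at protein-coding genes, but not than at snoRNA genes. A divergent partner is a call on the other strand 0 to 1000 bp upstream. It was found for 76 of 252 start-flank calls (30.2%, 24.8 to 36.1), against 16046 of 27787 calls outside the tRNA windows (57.7%, 57.2 to 58.3) and 1860 of 2879 start-flank calls of protein-coding genes (64.6%, 62.8 to 66.3). Of the 76 partners, 16 were themselves start-flank calls of another tRNA gene. The other 120 calls at tRNA genes had a partner in 92 cases (76.7%, 68.3 to 83.3). Being partners is mutual, so any of these 120 that is the partner of a start-flank call has one by definition. Partners within 500 bp were found for 20.6% of start-flank calls, so the share of 76.7% is not independent of the start-flank share. Where a call was also within 500 bp of an end of a gene that is not a tRNA gene, 28 of 58 start-flank calls had a partner (48.3%), and away from such ends 48 of 194 had (24.7%, 19.2 to 31.3). For the other calls the shares were 35 of 47 and 57 of 73. Of the start-flank calls of the other polymerase III genes, 6 of 11 had a partner (54.5%, 28.0 to 78.7), and at snRNA genes 10 of 30 and at snoRNA genes 15 of 78 had one.

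**Figure D4:**
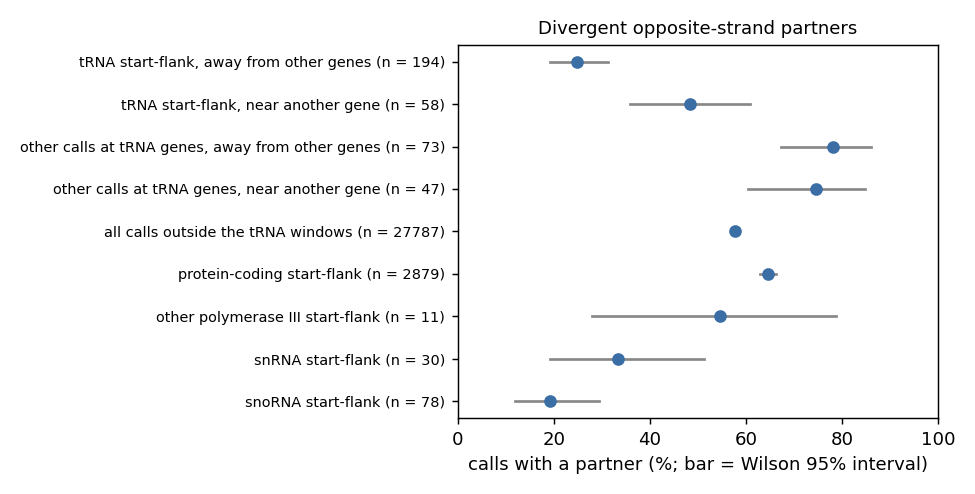
Percentage of calls with an opposite-strand call 0 to 1000 bp upstream (horizontal axis, bars are Wilson 95% intervals over calls) for start-flank and other calls at tRNA genes, near to or away from other genes, and for comparison classes. Start-flank calls away from other genes lie at 24.7%, below the 57.7% of calls outside the tRNA windows. Those of snoRNA and snRNA genes lie at 19.2% and 33.3%, and the 11 of other polymerase III genes at 54.5%. The other calls at tRNA genes lie above 57.7%, and they include partners of start-flank calls, which have a partner by definition.

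Partners of start-flank calls lay at a median of 311.5 bp (quartiles 153 and 597 bp), and those of the other calls at 154 bp. Around the 252 genes, oriented by their start-flank call and leaving out start-flank calls of other tRNA genes, 61 genes (24.2%) had an opposite-strand call within 1000 bp upstream and 22 genes (8.73%) within 1000 bp downstream. A call can serve more than 1 gene and can be upstream of one and downstream of another: the upstream set was 67 different calls in 73 gene-call pairs, and the downstream set 28 calls in 30 pairs. Same-strand calls were found upstream of 36 genes (38 calls) and downstream of 35 genes (36 calls). Leaving out calls near other genes, 36 genes had opposite-strand calls upstream (38 calls) and 13 had them downstream (14 calls), with a median of 225 bp over the 40 upstream pairs. Beyond 1000 and up to 2000 bp away, each of the 4 counts of calls was between 8 and 14 before calls near other genes were left out.

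**Figure D5:**
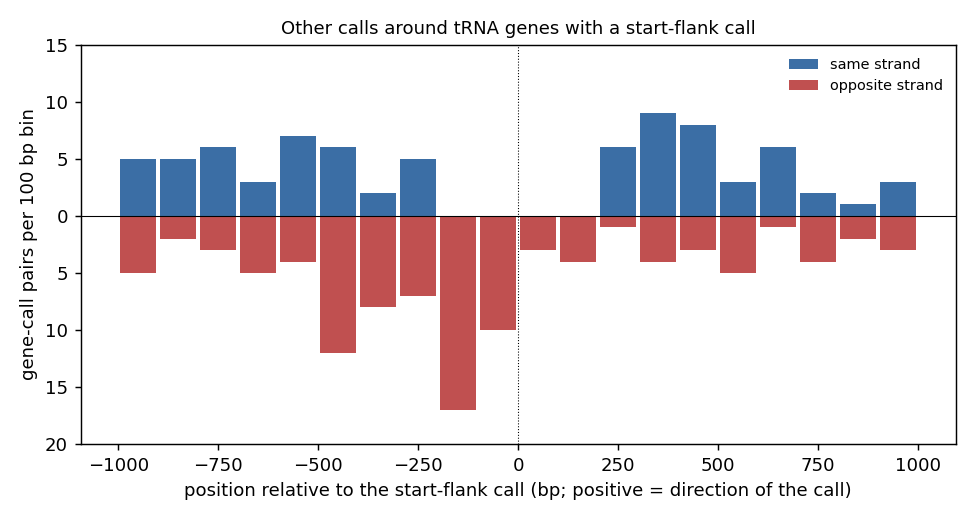
Pairs of a tRNA gene and another call per 100 bp bin (vertical axis, same strand above and opposite strand below 0) by distance in bp from the start-flank call (horizontal axis, positive in its direction), leaving out start-flank calls of other tRNA genes. Opposite-strand calls are most frequent within 500 bp upstream, and no same-strand call lies within 200 bp, a range in which the lists hold no pair of same-strand calls.

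Some of these calls cannot be told apart from the starts of nearby genes. Of the 372 calls, 105 (28.2%, 23.9 to 33.0) were within 500 bp of an end of another gene: 58 of 252 start-flank calls (23.0%) and 47 of the 120 others (39.2%). For protein-coding ends the counts were 25 (9.92%) and 32 (26.7%). One neighbour with a call of its own is POLR3E, which encodes a subunit of polymerase III and begins at 22297409. The leucine gene TRL-AAG2-4 (chr16:22297140-22297221) has its forward call 7 bp out, at 22297133, and a separate forward call lies at 22297410. At TRX-CAT1-1 the partner of the start-flank call lies 273 bp upstream, within 500 bp of an end of ILF2. tRNA genes within 1000 bp of another gene's end had a start-flank call in 90 of 118 cases (76.3%, 67.8 to 83.0), and those farther away in 162 of 311 (52.1%, 46.5 to 57.6). Those lying inside another gene had one in 67 of 118 (56.8%). Neighbourhood and chromosome were not separated in these counts.

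The genes for the tRNA transcription and processing machinery were almost all called, 47 of 49 having a call within 500 bp of an end (95.9%), against 46.4% of all protein-coding genes. All 13 polymerase III subunit genes listed, from the large subunits POLR3A and POLR3B to the alternative subunits POLR3G and POLR3GL, had one. So did all 6 TFIIIC genes, GTF3C1 to GTF3C6. A call of either strand counted here, and the only call at POLR3G did not read into the gene. Of 9 genes for TFIIIB and the snRNA activating complex, 8 had one, and BRF1, which encodes the TFIIIB subunit used at tRNA genes, did not within this window, while BRF2, its counterpart at genes with upstream promoters, did. MAF1, which encodes the repressor of polymerase III, and SSB, whose product La binds the 3′ ends of the new transcripts, were called. Among 19 genes for RNase P, RNase Z (ELAC2), the CCA-adding enzyme (TRNT1), splicing and export (XPOT), 18 were called.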

How the data were processed

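PRO-seq start sites from HUDEP-2 cells were analysed as 2 lists, 1 per strand, deposited by the authors with the series and not with a sample. Which of the libraries went into them is not stated. Per the file headers, start sites were called with TSScall, without annotation, on 1 sorted and de-duplicated alignment; its settings are not stated in these sources. The submitters' processing notes name hg38 as build and, as tools, deepTools 3.5.4, SAMtools 1.17, Picard and BWA 0.7.16a. The score the authors deposited is 0 in every row. The other column used, as deposited, is the end coordinate, taken as the 1-based position of a call.

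Genes came from the RefSeq table of GRCh38.p14, which gives no strand. The members and the lists of genes were chosen with earlier results of these data known. tRNA genes were named when a call lay at most 50 bp from an end, when they had the most calls, when their isotype had under 3 called genes, or when they lay in the clusters with most genes or calls; other genes named here were chosen after their values were seen, apart from the listed machinery, other polymerase III and marker genes. Another gene's end counted as near within 500 bp. The result of 1 listed gene is not reported here. Shares carry Wilson 95% intervals, and no test between groups was run, because genes and calls are not replicates. Windows, flank, partner distance and cluster gap were varied. On simulated lists, 200 of 200 planted start-flank calls and 80 of 80 planted partners were recovered over 429 genes. All were planted inside the windows used, so this checks only the counting. Scripts ran in Python 3.11.15 with matplotlib 3.10.9, scipy 1.17.1, pandas 2.3.3 and numpy 2.4.6.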

Additional observations from a re-analysis of the deposited data

Results flagged for a closer look

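The mitochondrial genome was outside the chromosomes described, and it too had calls at tRNA genes. All 22 mitochondrial tRNA genes had a call within 500 bp of an end, and 6 of 22 (27.3%, Wilson 95% interval 13.2 to 48.2) had one 0 to 20 bp outside an end on the strand reading in. These genes are cut out of long transcripts made by the mitochondrial polymerase and are not transcribed by polymerase III. All 15 other mitochondrial genes also had a call within 500 bp, and 3 of 15 (20%, 7.05 to 45.2) had a start-flank call, an interval that overlaps that of the tRNA genes. Since every mitochondrial gene had a call within 500 bp, this window does not set the tRNA genes apart. Over all genes of chromosomes 1 to 22 and X the shares were 21.3% and 6.28%, and differences in the density of calls or genes were not allowed for.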

How the results depend on the processing

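Of the 25 recomputed values for 8 results, 16 stayed within a set range of the main value and 9 did not; the range was the Wilson interval for a share and 1.5 times for a count of calls or a median distance. Restricting to tRNA genes over 1000 bp from other gene ends left 220 calls in place of 372, with a call at 54.7% of these genes and a start-flank call at 50.9%. Partners within 500 bp were found for 37.1% of all calls and 20.6% of start-flank calls. Away from other genes, 39.3% and 24.7% had a partner within 1000 bp. Another gene's end was near 40.3% of calls at 1000 bp, and a protein-coding one near 15.3% at 500 bp. Windows of 100, 250 and 1000 bp gave 277, 312 and 432 calls and a call at 58.9 to 62.1% of genes. The flank widths, the row-order filter and the settings for start-flank calls were chosen after seeing the data. Counting only calls on the strand of the gene was not run, since the tables used here give no strand for tRNA genes. No library could be left out, because the lists have no column per library. No paired analysis was possible because the lists name no sample or replicate. Read depth behind a call is unknown, so a gene without a call is not shown to be untranscribed.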
